A study of Homo sapiens with 4 samples.

Results

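The genes described here are 10 genes of the luminal and estrogen receptor program of breast epithelium: ESR1, PGR, FOXA1, GATA3, AGR2, AGR3, TFF1, TFF3, XBP1 and SPDEF. They were chosen by name from a list of such genes and stand among 34555 named genes of the deposited table. MDA-MB-231-LM2 (LM2) is a subline of the human breast cancer line MDA-MB-231 labelled as strongly metastatic to the lung, and was grown in DMEM with 10% FBS under 5% CO2. MDA-MB-231, labelled as parental, was grown in Leibovitz L-15 medium with 10% FBS under air, so the effect of the medium and of the gas cannot be told apart from that of the line. Total RNA was sequenced to find transcripts that differ between both lines. The labels give 4 samples, 2 for each line, but the table holds 1 column per cell line, so the spread between cultures is unknown and differences below carry no p-value.

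The estrogen receptor (ESR1) is a transcription factor that binds estrogen and switches on genes such as PGR and TFF1 in luminal cells of the mammary gland. FOXA1 opens chromatin for it, and GATA3 works with both to hold the luminal state. SPDEF is an ETS factor of luminal and mucus-secreting cells, and AGR2 and the trefoil peptides TFF1 and TFF3 are products of the secretory pathway of such cells. MDA-MB-231 is known as a line without estrogen or progesterone receptor, so these genes describe how much RNA of luminal genes such a line holds.

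LM2 cells had far less RNA of SPDEF and AGR2 than MDA-MB-231 cells, while XBP1 was high in both lines and ESR1, PGR and AGR3 were close to or at 0 in both. SPDEF was 8.57-fold lower in LM2 and AGR2 12.1-fold lower. In RNA of whole cultures, fewer cells with a transcript and less of it per cell cannot be told apart. FOXA1 was 5.78-fold higher in LM2, but from low counts. The trefoil genes TFF1 and TFF3 were lower in LM2 by 3.81-fold and 2.52-fold, again from low counts. Ratios set LM2 over MDA-MB-231, with counts scaled by the column totals of 128985870 counts in LM2 and 130689252 counts in MDA-MB-231. Intervals in parentheses are exact at 95% (Clopper-Pearson for ratios, Poisson for levels) and cover counting error only.

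The promoter stretches of the 3 members with an RPKM over 1 in either cell line are shown first, because these genes carry most of the RNA of the group and SPDEF and AGR2 were lower together. RPKM divides the count by the transcript's length and the column's total. Each stretch comes from the 250 bases before the start given by RefSeq (GRCh38.p14), whereas the counts were made on hg19. Bases that GENCODE release 29 counts to an exon of the gene were left out, 4 in SPDEF, 81 in AGR2 and 28 in XBP1, and 1 of 7 models of AGR2 starts further upstream, so its stretch is intronic in that model. The stretch of SPDEF lies at chr6:34556334-34556579, that of AGR2 at chr7:16805081-16805249 and that of XBP1 at chr22:28800598-28800819, all on the minus strand. In AGR2, capitals mark AGATAA, which is bound by factors of the GATA family. In XBP1 they mark CCACG, which is only a part of the endoplasmic reticulum stress element. The full element was not searched for.
SPDEF: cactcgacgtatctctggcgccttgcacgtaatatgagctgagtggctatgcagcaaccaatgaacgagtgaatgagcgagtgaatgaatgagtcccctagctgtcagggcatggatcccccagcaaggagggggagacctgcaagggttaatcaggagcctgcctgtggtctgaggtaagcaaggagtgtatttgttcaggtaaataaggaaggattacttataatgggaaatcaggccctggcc
AGR2: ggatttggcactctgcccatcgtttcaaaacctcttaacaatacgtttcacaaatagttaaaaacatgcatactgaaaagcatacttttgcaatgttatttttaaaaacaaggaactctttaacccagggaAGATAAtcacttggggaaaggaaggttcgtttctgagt
XBP1: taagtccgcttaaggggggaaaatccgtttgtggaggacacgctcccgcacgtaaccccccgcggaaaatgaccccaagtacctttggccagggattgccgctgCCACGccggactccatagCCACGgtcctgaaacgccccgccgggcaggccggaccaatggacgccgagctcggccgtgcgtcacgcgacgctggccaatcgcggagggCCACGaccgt

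RefSeq windows of 250 bases matched 8 of the 10 members, with 1 window taken per gene and both strands searched. The full estrogen response element, an inverted repeat of GGTCA with 3 bases between, was in 0 of the 8 windows and in 0.0439% of the windows of 27305 genes. Its core GGTCA was in 4 of the 8 (PGR, GATA3, AGR3 and XBP1) and in 33.1% of all windows. AGATAA was in 1 of the 8 (AGR2) and in 9.37% of all windows, and CCACG was in 1 of the 8 (XBP1) and in 33.3%. TGTTTAC, a forkhead motif, was in 0 of the 8 against 2.98% of all windows. CCGGAT, an ETS motif with the GGAT core that SPDEF prefers, was in 0 of the 8 against 5.80%. Only the exact letters given were searched, so other forms of a motif are not counted. TATAAA was in 1 of the 8 (AGR3) against 11.1%. The 3 CCACG matches of XBP1 did not overlap its GGTCA match. SPDEF and AGR2 shared none of these motifs in these windows.

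By level, XBP1 stood at the top in both lines, with SPDEF and AGR2 below it. In LM2 the order was XBP1, SPDEF, AGR2, GATA3, TFF3, FOXA1, TFF1, ESR1 and PGR, with AGR3 at 0. Among neighbours in this order, the counting intervals of RPKM overlapped between GATA3 and TFF3, TFF3 and FOXA1, FOXA1 and TFF1, and ESR1 and PGR. In MDA-MB-231 the order was XBP1, SPDEF, AGR2, TFF1, TFF3, GATA3, FOXA1, PGR and ESR1, and intervals overlapped between TFF1 and TFF3, TFF3 and GATA3, and PGR and ESR1. An RPKM over 1, the level the study took as detectable, was reached by 2 members in LM2 (33.8% of all named genes pass there) and by 3 in MDA-MB-231 (34.7% of all named genes). XBP1 made up 87.9% of the summed RPKM of the 10 members in LM2 and 45.7% in MDA-MB-231. SPDEF made up 7.19% of that sum in LM2 and 37.1% in MDA-MB-231.

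**Figure D1:**
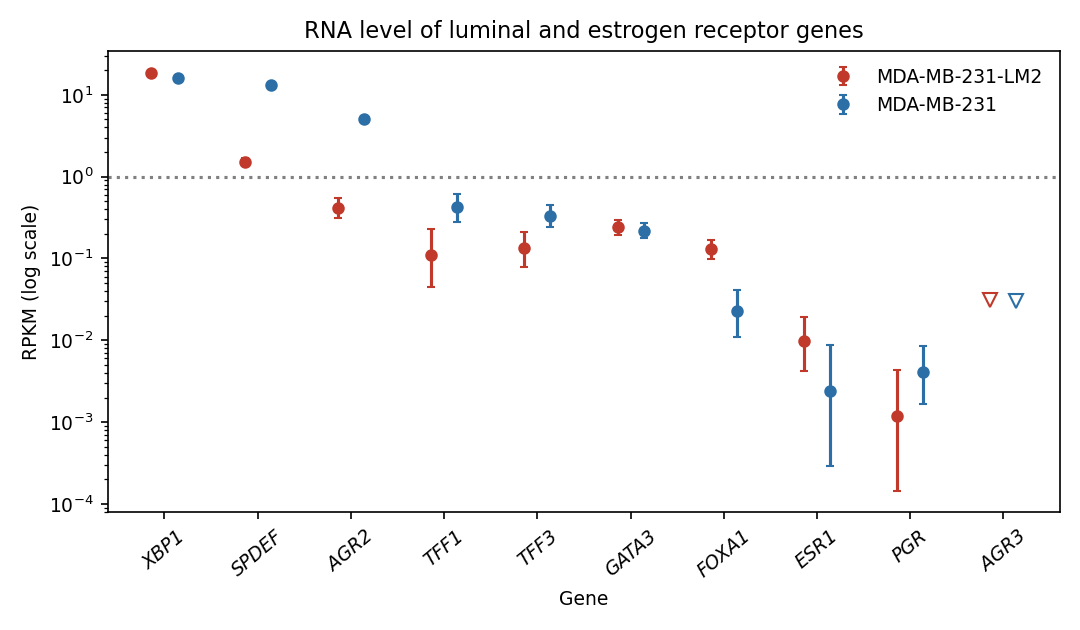
RPKM (y axis, log scale) of the 10 genes (x axis, ordered by summed level) in LM2 (red) and MDA-MB-231 (blue), 1 value per cell line. Bars are 95% Poisson intervals, open triangles mark the level of 3 counts for AGR3 (listed at 0 in both), and the dotted line is an RPKM of 1; SPDEF had an RPKM of 1.52 in LM2 against 13.01 in MDA-MB-231, and AGR2 0.418 against 5.05.

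Of the 10 members, 4 had a mean of at least 50 counts (GATA3, AGR2, XBP1 and SPDEF). Of these 4, 2 were over 2-fold lower in LM2, where 6.90% of the 15440 named genes at that count level were, and 0 were over 2-fold higher, where 4.58% were. With a minimum of 10 counts 4 members were over 2-fold lower (against 9.62% of named genes) and 1 higher (against 6.78%), and with no minimum 5 were lower (against 16.5%) and 2 higher (against 14.8%). AGR3 had no counts in either line. Over the 9 members with counts the median log2 ratio (0.5 counts added) was -1.31, set beside -0.0082 over the 26223 named genes with counts. It rests on low counts, as with log2(RPKM + 0.1) it was -0.041, set beside -0.0075 over those genes. By the ratio itself, 5 of the 9 members with counts were lower in LM2 and 4 higher. The same split over all named genes was not computed. The intervals of ESR1, PGR and GATA3 take in equal levels, and XBP1 was only 1.16-fold higher. FOXA1 stood at one end and AGR2 at the other.

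**Figure D2:**
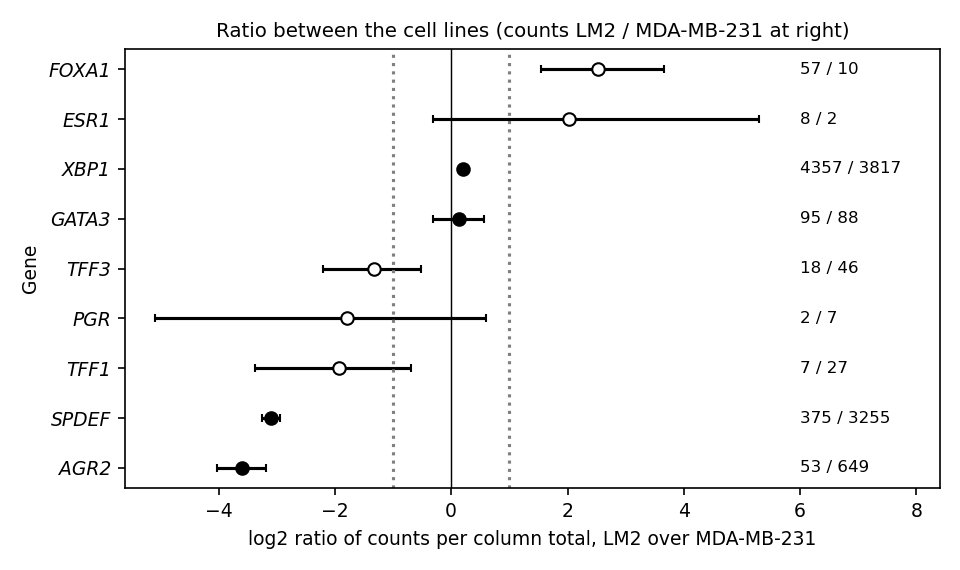
Log2 ratio of LM2 over MDA-MB-231 (x axis) for 9 members that had counts (y axis), with 95% counting intervals, and the counts of LM2 and MDA-MB-231 at the right. Filled points have a mean of at least 50 counts, open points fewer, and dotted lines mark 2-fold; AGR2 (-3.60) and SPDEF (-3.10) lie at the low end and FOXA1 (2.53) at the high end.

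Both receptors were almost silent. ESR1 had 8 counts in LM2 and 2 in MDA-MB-231, in each of its 4 listed models, which hold the same reads. The ratio of ESR1 was 4.05 (0.809 to 39.2), an interval that takes in equal levels. PGR, the progesterone receptor and a classic target of ESR1, had 2 counts in LM2 and 7 in MDA-MB-231 (ratio 0.289, 0.0293 to 1.52). Its interval takes in equal levels as well, and 6 of its 7 listed models had this same pair of counts. In RPKM, ESR1 stood at 0.0098 in LM2 and 0.0024 in MDA-MB-231, and PGR at 0.0012 in LM2 and 0.0041 in MDA-MB-231. The antisense gene PGR-AS1 covers 5.27% of the exon bases of PGR in GENCODE release 29 and had 0 counts in both lines. Whether ESR1 or PGR differs between the lines was not detectable at this depth.

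Of the factors that work beside ESR1, FOXA1 was higher in LM2 and GATA3 was within counting error. FOXA1 had 57 counts in LM2 and 10 in MDA-MB-231 (ratio 5.78, 2.92 to 12.7). Its interval lies wholly above equal levels, as did that of 8.78% of the 10783 named genes with a mean under 50 counts. Those take in genes with far fewer counts than FOXA1, whose wide intervals seldom exclude equal levels. The share among genes at the count level of FOXA1 was not computed. With log2(RPKM + 1) the log2 ratio of FOXA1 shrinks to 0.14, since its RPKM was only 0.131 in LM2 and 0.0226 in MDA-MB-231. The 30 nearest protein-coding genes with enough counts had a median log2 ratio of 0.07, and all 30 lay below FOXA1. Its paralog FOXA2, a forkhead factor of endoderm, had 1473 counts in LM2 and 1424 in MDA-MB-231 (ratio 1.05, 0.974 to 1.13). Per length, FOXA2 stood at 36.0 times the RPKM of FOXA1 in LM2 and at 199 times in MDA-MB-231.

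GATA3 had 95 counts in LM2 and 88 in MDA-MB-231 (ratio 1.09, 0.810 to 1.48), so both lines were within counting error of each other, and its 2 models had the same counts. Of the other GATA factors, GATA6 and GATA2 had a higher RPKM than GATA3 in both lines and were lower in LM2. In LM2 the counting intervals of GATA2 (0.259 to 0.364) and GATA3 (0.194 to 0.293) overlapped. GATA6, a factor of endoderm and heart, had 481 counts in LM2 and 1482 in MDA-MB-231 (3.04-fold lower, 2.74 to 3.38). GATA2, a factor of blood progenitors, had 138 counts in LM2 and 336 in MDA-MB-231 (2.40-fold lower, 1.97 to 2.95). The RPKM of GATA6 was 4.12 times that of GATA3 in LM2 and 13.7 times in MDA-MB-231. GATA4 and GATA5 had 0 counts in both lines, and GATA1 had 2 in each.

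SPDEF stood next to XBP1 by level in each line. It had 375 counts in LM2 and 3255 in MDA-MB-231, an RPKM of 1.52 in LM2 and 13.01 in MDA-MB-231 (8.57-fold lower, 7.70 to 9.56). Of 15440 genes at that count level, 151 had a smaller ratio. The shorter model of SPDEF (NM_001252294) had 364 counts in LM2 and 3172 in MDA-MB-231, nearly the same reads. SPDEF lies on the short arm of chromosome 6, where the 30 nearest genes were lower too. Their median log2 ratio was -0.59 (-0.96 to -0.44), and 9 of 30 were over 2-fold lower (against 6.90% of all named genes). None of the 30 lay below SPDEF. The nearest in size was DEF6 at -3.00 on the log2 scale, and the log2 ratio of SPDEF differed from the median of its neighbours by -2.51. The part of this neighbourhood in the ratio of SPDEF was not tested.

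AGR2, a disulfide isomerase of the endoplasmic reticulum needed to fold mucins, had 53 counts in LM2 and 649 in MDA-MB-231. Its RPKM was 0.418 in LM2 and 5.05 in MDA-MB-231 (12.1-fold lower, 9.13 to 16.3). AGR2 was above the RPKM of 1 in the parental line alone, and 112 of the 15440 genes had a smaller ratio. The 30 genes nearest to AGR2 had a median log2 ratio of -0.24, and 0 of them lay below it. The ratio of SPDEF was 1.41 times that of AGR2 (1.04 to 1.94, conditional exact interval of the odds ratio). Its relative AGR3, from the adjacent locus on chromosome 7, had 0 counts in both lines, and 3 counts would be an RPKM of 0.0310 in LM2 and 0.0306 in MDA-MB-231. The Poisson intervals of AGR3 reach up to 0.0381 in LM2 and 0.0376 in MDA-MB-231. A further gene of this family, TXNDC12, had 3183 counts in LM2 and 3015 in MDA-MB-231 (ratio 1.07, 1.02 to 1.12). The RPKM of TXNDC12 was therefore 24.6 times that of AGR2 in LM2 and 1.91 times in MDA-MB-231.

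**Figure D3:**
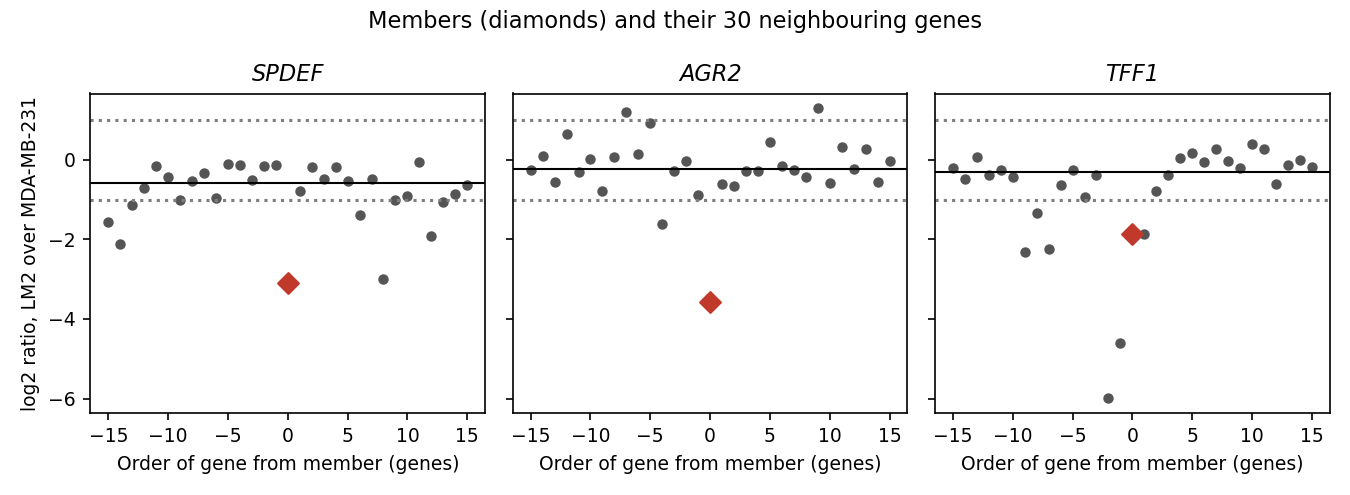
Log2 ratio of LM2 over MDA-MB-231 (y axis) of SPDEF, AGR2 and TFF1 (red diamonds) and of their 30 nearest protein-coding neighbours at 50 or more counts on average (grey), by order along the chromosome (x axis). Black lines are medians of the neighbours (-0.59 for SPDEF, -0.24 for AGR2 and -0.32 for TFF1) and dotted lines mark 2-fold.

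The trefoil peptides are small secreted proteins that protect mucous surfaces, and TFF1 is a much used readout of estrogen action. TFF1 had 7 counts in LM2 and 27 in MDA-MB-231 (3.81-fold lower, 1.62 to 10.4). TFF3 had 18 counts in LM2 and 46 in MDA-MB-231 (2.52-fold lower, 1.43 to 4.62). Both intervals lie wholly below equal levels, as did those of 11.1% of the 10783 named genes with a mean under 50 counts. Those take in genes with fewer counts than TFF1 and TFF3, and the share at their count level was not computed. The 2 ratios did not differ beyond counting error (ratio of TFF1 to that of TFF3 0.665, 0.207 to 1.94). TFF2, the trefoil gene between them on chromosome 21, had 5 counts in LM2 and 134 in MDA-MB-231 (26.5-fold lower, 11.1 to 82.8). All 3 trefoil genes were thus lower in LM2, at RPKM values from 0.0548 to 0.132 there. The 30 genes nearest to TFF1 had a median log2 ratio of -0.32. Of these 30, 6 were over 2-fold lower, TFF2 included (against 6.90% of all named genes), and 5 lay below TFF1.

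XBP1, a basic leucine zipper factor induced by estrogen in luminal cells and also the effector of the IRE1 branch of the unfolded protein response, was the member best measured. It had 4357 counts in LM2 and 3817 in MDA-MB-231, an RPKM of 18.6 in LM2 and 16.05 in MDA-MB-231 (ratio 1.16, 1.11 to 1.21). The interval excludes equal levels, but so does that of 25.4% of all 26223 named genes with counts in the same direction. Those take in genes with far fewer counts than XBP1. XBP1 stood at percentile 95.1 of named genes by RPKM in LM2 and at 94.5 in MDA-MB-231. It was 12.2 times SPDEF by RPKM in LM2 and 1.23 times in MDA-MB-231.

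The activity of XBP1 depends on splicing in the cytoplasm, where IRE1 removes a segment of 26 bases and so shifts the reading frame. The segment is shown because the table lists a model with it (NM_005080) and one without it (NM_001079539). It lies in exon 4 of the 5 exons of the longer model, at chr22:28796124-28796149 on the minus strand (GRCh38, GENCODE release 29), within the coding sequence. Capitals mark the 26 bases, between 20 bases on either side.
XBP1 segment: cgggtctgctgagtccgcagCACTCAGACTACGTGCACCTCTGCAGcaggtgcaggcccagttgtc

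The model with the segment had 4357 counts in LM2 and 3817 in MDA-MB-231, and the model without it 4335 in LM2 and 3790 in MDA-MB-231. The models thus differed by 22 counts in LM2 and by 27 in MDA-MB-231. Nearly all reads were given to both, so these counts do not tell the spliced from the unspliced form. Of 21 genes of the IRE1-XBP1 branch and of endoplasmic reticulum chaperones, LM2 had 0 at over 2-fold lower levels (against 6.90% of all named genes) and 0 at over 2-fold higher levels (against 4.58% of all; median log2 ratio -0.15, -0.30 to 0.07). The chaperones HSP90B1 (79.5 RPKM in LM2 and 109 in MDA-MB-231) and HSPA5 (48.6 RPKM in LM2 and 57.9 in MDA-MB-231) led the list by level. The sensor itself, ERN1, had 520 counts in LM2 and 467 in MDA-MB-231.

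Other genes of estrogen signaling were set beside the members. Of 18 nuclear receptors and cofactors, LM2 had 3 at over 2-fold higher levels (against 4.58% of all named genes at that count level) and 1 at over 2-fold lower levels (against 6.90% of all; median log2 ratio 0.02, -0.35 to 0.30). TFAP2C, an AP-2 factor that helps to activate ESR1, was 2.67-fold higher (2.40 to 2.97), with 1262 counts in LM2 and 479 in MDA-MB-231. ESR2, the second estrogen receptor, had 180 counts in LM2 and 90 in MDA-MB-231 (2.03-fold higher, 1.56 to 2.64). NCOA1, a coactivator of nuclear receptors, was 2.04-fold lower (1.86 to 2.23), with 683 counts in LM2 and 1409 in MDA-MB-231. The intervals of ESR2 and NCOA1 take in 2-fold.

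Estrogen-induced genes did not share a direction. Of the 20 listed, 15 reached the minimum of 50 counts on average, with 3 at over 2-fold higher levels in LM2 (against 4.58% of all named genes) and 0 at over 2-fold lower levels (against 6.90% of all; median log2 ratio -0.06, -0.39 to 0.90). CA12, a carbonic anhydrase of the cell surface, had 3759 counts in LM2 and 1579 in MDA-MB-231 (2.41-fold higher, 2.27 to 2.56). GREB1, a cofactor of ESR1 and one of its most direct targets, had only 85 counts in LM2 and 41 in MDA-MB-231 (2.10-fold higher, 1.43 to 3.13). STC2, a secreted glycoprotein, had 116 counts in LM2 and 57 in MDA-MB-231 (2.06-fold higher, 1.49 to 2.88). The intervals of GREB1 and STC2 take in 2-fold.

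**Figure D4:**
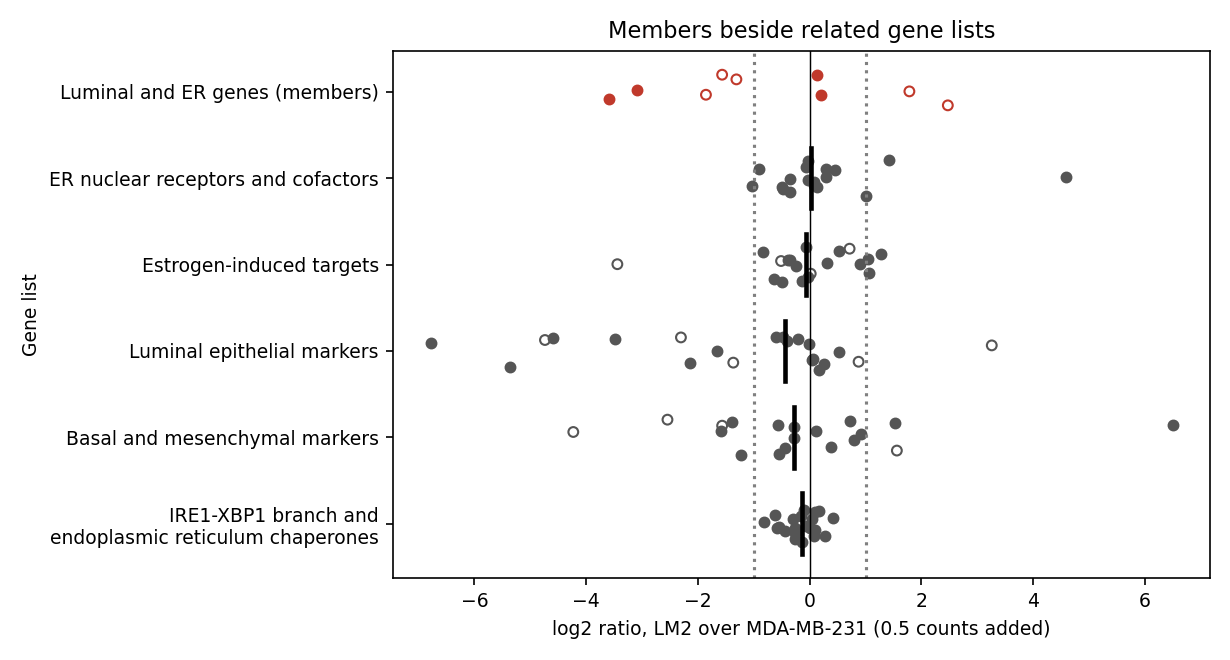
Log2 ratio of LM2 over MDA-MB-231 with 0.5 counts added (x axis) of the members with counts (red) and of 5 related gene lists (grey). Filled points have a mean of at least 50 counts, open points fewer, black bars are medians of the filled points, and dotted lines mark 2-fold; of the luminal epithelial markers 6 filled points lie over 2-fold lower and 0 over 2-fold higher.

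Of the luminal epithelial markers other than the members, some were far lower in LM2. The list also holds FOXA2, FOXA3 and TFF2, which are relatives of members, and TFF2 is among those over 2-fold lower. Of 22 listed, 16 had a mean of at least 50 counts, with 6 (37.5%) at over 2-fold lower levels in LM2 (against 6.90% of all named genes) and 0 at over 2-fold higher levels (against 4.58% of all; median log2 ratio -0.44, -3.49 to 0.07). EHF, an epithelial ETS factor like SPDEF, had 135 counts in LM2 and 5672 in MDA-MB-231 (41.5-fold lower, 34.96 to 49.6). ELF3, another epithelial ETS factor, had 33 counts in LM2 and 149 in MDA-MB-231 (4.46-fold lower, 3.04 to 6.71), whereas ELF5 had 0 in LM2 and 2 in MDA-MB-231. CLDN4 and KRT19, a tight junction protein and a keratin, completed the largest ratios of the list with TFF2. CLDN4 had 75 counts in LM2 and 8427 in MDA-MB-231, and KRT19 had 2272 in LM2 and 25837 in MDA-MB-231. The simple keratin KRT18 did not follow them, at 134 RPKM in LM2 and 112 in MDA-MB-231. E-cadherin, CDH1, which defines epithelial cells, had 0 counts in LM2 and 13 in MDA-MB-231. At low counts others went up in LM2: ESRP1, an epithelial splicing factor, had 42 counts in LM2 and 4 in MDA-MB-231 (10.6-fold higher, 3.86 to 40.8). FOXA3, a paralog of FOXA1, had 33 counts in LM2 and 18 in MDA-MB-231 (1.86-fold higher, 1.02 to 3.50).

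Mesenchymal and basal markers varied in level, and basal keratins were at or near 0 in both lines. An RPKM over 1 was reached by 11 of the 19 listed in LM2 (against 33.8% of all named genes). In MDA-MB-231 11 reached it as well (against 34.7%). SPARC stood at 23.2 RPKM in LM2 and 0.256 in MDA-MB-231. Of 19 listed, 15 had a mean of at least 50 counts, with 3 at over 2-fold lower levels in LM2 (against 6.90% of all named genes) and 2 at over 2-fold higher levels (against 4.58% of all; median log2 ratio -0.28, -0.57 to 0.79). Vimentin, VIM, stood at 951 RPKM in LM2 and 550.0 in MDA-MB-231. The basal keratin KRT5 had 0 counts in LM2 and 9 in MDA-MB-231, KRT14 had 0 in LM2 and 1 in MDA-MB-231, and KRT17 had 5 in LM2 and 32 in MDA-MB-231. TP63, a factor of basal cells, had 65 counts in LM2 and 22 in MDA-MB-231. The largest ratios were those of SPARC (10724 counts in LM2 and 120 in MDA-MB-231), of MYLK, a myosin kinase (3.01-fold lower, 2.86 to 3.18), of ID4 (2.90-fold higher, 2.35 to 3.61) and of FOXC1, a forkhead factor of basal-like tumors (2.61-fold lower, 2.32 to 2.94). Luminal markers were split. ESR1, PGR and CDH1 were at or near 0 in both lines, and FOXA1 and GATA3 were under an RPKM of 1 in both. KRT8 (95.4 RPKM in LM2 and 126 in MDA-MB-231), KRT18 and XBP1 were well expressed in both. KRT19 stood at 12.0 RPKM in LM2 and 134 in MDA-MB-231, and EPCAM at 1.60 in LM2 and 1.61 in MDA-MB-231. Of 8 markers of blood, endothelial and other cell types, CD3E and CDH5 were at 0 in both lines and PTPRC was at 7 counts in LM2 and 8 in MDA-MB-231. ALB had 0 in LM2 and 3 in MDA-MB-231. CD68 had 4266 counts in LM2 and 5583 in MDA-MB-231, GFAP 195 in LM2 and 385 in MDA-MB-231, and PECAM1 343 in LM2 and 48 in MDA-MB-231.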

How the data were processed

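Reads were demultiplexed with bcl2fastq and aligned with TopHat2 (version 2.0.13) to hg19, per the submitters' processing notes. The authors deposited read counts per transcript and RPKM values, 1 column of each per cell line. Not given in the sources used here are the annotation, the counting program with its strand setting, and whether a column stands for 1 library or for both. RPKM equalled the count divided by listed length and column total, to a relative difference of at most 4.98e-06.

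Transcripts were paired with symbols through RefSeq (GRCh38.p14) and GENCODE release 29 (33714 NM_, 6795 NR_ and 21822 ENST identifiers). Of 65423 transcripts, 22 belong to the members, and each gene is represented by its transcript of highest mean count (ties by identifier). With 1 column per line, edgeR's quasi-likelihood test was not possible. Ratios were scaled by column totals, and lists were described at a mean of at least 50 counts with 0.5 counts added. Intervals of list medians are order statistics. Neighbours are the 15 nearest such protein-coding genes on either side by RefSeq order. In GENCODE, exons of another gene on the other strand overlap those of PGR (PGR-AS1) and FOXA1 (TTC6, 16 bases) among the members.

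Named were all members and up to 4 genes per list by the size of their ratio over 2-fold, or the 2 highest in RPKM where fewer than 2 passed. FOXA2, TXNDC12, GATA1, GATA4, GATA5, ELF3, ELF5, ESRP1, FOXA3, KRT5, KRT14, KRT17, TP63, KRT8, KRT18, EPCAM, VIM, CDH1, ERN1, CD3E, CDH5, PTPRC, ALB and the neighbours were named after their values were seen. Some listed genes are not reported here. Members, lists and tests were chosen with earlier results of these data known. Intervals were tested on simulated Poisson counts, which hold counting error only and so say nothing on the spread between cultures. Alternatives were TMM and upper-quartile factors (edgeR 4.0.16), size factors (DESeq2 1.42.0), other minimums, pseudocounts and transcript choices. Software was Python 3.11.15 with scipy 1.17.1, pandas 2.3.3, numpy 2.4.6 and matplotlib 3.10.9, and R 4.3.3.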

Additional observations from a re-analysis of the deposited data

How the results depend on the processing

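The log2 ratios of the 9 members with counts kept their direction in all 81 alternatives tried for them, and 75 of the 81 values stayed within the counting interval. The other 6 came from a larger pseudocount on RPKM, the widest shifts being FOXA1 at 0.14, AGR2 at -2.09 and TFF1 at -0.35 with log2(RPKM + 1). A pseudocount on RPKM cannot turn the direction of a ratio, and the models of a member hold nearly the same reads. The kept directions were thus largely fixed in advance and say nothing on the spread between cultures. Scaling mattered little, as TMM factors moved all log2 ratios by 0.014. With no minimum count, 5 members passed 2-fold downward in LM2 (against 16.5% of the 26223 named genes with counts) and 2 upward (against 14.8%). With a minimum of 10 counts 4 were lower (against 9.62% of 19202) and 1 higher (against 6.78%). The median over all 10 members was -0.65, with AGR3 at 0 counts included, and -0.17, -0.021 and -0.0021 with log2(RPKM + 0.01), log2(RPKM + 0.1) and log2(RPKM + 1). The median over the 9 members with counts, chosen after seeing the data, was -1.31. At an RPKM minimum of 0.1, 7 members were detected in LM2 and 6 in MDA-MB-231. The share of all named genes that pass this minimum was not computed, so these counts have no background. The median of the other GATA genes was 0.019 with no minimum, where 3 of 5 have 2 counts or fewer in each line. No paired analysis was possible because the table has 1 column per cell line, and leaving out a replicate could not be run for the same reason. Depth limits ESR1, PGR and AGR3, whose counts cannot show a difference.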

Other observations

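The trefoil locus on chromosome 21 held further genes with low ratios, which belong to no list and were picked after their values were seen. The lipid transporter ABCG1 had a log2 ratio of -5.99, the serine protease TMPRSS2 -2.25, the interferon-induced MX2 -2.32 and MX1 -1.35, and the sugar phosphate transporter SLC37A1 -1.86 (LM2 over MDA-MB-231, 0.5 counts added).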
